A study of Mus musculus with 12 samples.

Results

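Leukocytes leave the blood by holding on to the vessel wall in steps, and each step uses its own endothelial proteins. Selectins catch passing cells and let them roll, chemokines held on the endothelial surface arrest them, and members of the immunoglobulin superfamily bind leukocyte integrins for firm adhesion and crawling. In brain vessels most of these molecules are kept low at rest, are raised by inflammatory signals through NF-kB and related factors, and are used mainly in venules. Described here are 8 endothelial genes of this system, chosen by name from the 21638 rows of the deposited expression table: the selectins Sele and Selp, the chemokine-binding receptor Ackr1, the immunoglobulin-type ligands Icam1, Icam2, Vcam1 and Alcam, and the sialomucin Cd34. All 8 were present and all 8 reached the limit for testing, a mean count of 10, as did 12577 genes in all.

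The RNA came from endothelial cells of the adult mouse brain cortex, sorted for CD31 and against CD41 and CD45, and was amplified with a full-length cDNA kit for small cell numbers. There were 3 libraries in each of 4 groups. Wild-type mice (WT) were compared with Hdac2lox/lox:Cdh5CreERT2 mice (Hdac2 ECKO, endothelial loss of a histone deacetylase), Ezh2lox/lox:Cdh5CreERT2 mice (Ezh2 ECKO, endothelial loss of a Polycomb methyltransferase) and Ctnnb1lox/lox:Cdh5CreERT2 mice (beta-catenin GOF, constitutively active beta-catenin). Cdh5CreERT2 is a tamoxifen-inducible Cre driven by the promoter of the VE-cadherin gene, so it acts in endothelium of every organ and vessel type. The mutants received 5 doses of tamoxifen at 75 mg/kg, and brains were taken after 2 months. Whether WT mice carried Cdh5CreERT2 or received tamoxifen is not stated in the labels, nor is exact age, sex or the number of animals per library, so p-values measure the spread between these libraries.

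Libraries held 24781070 to 36109975 counts, and 3 counts correspond to 0.0792 to 0.118 CPM (the count relative to the TMM-scaled library total). The 12 endothelial markers were above 0 in every library, with summed levels of 6693 to 8529.5 CPM, and Ptprc, the CD45 gene, stayed at or under 1.52 CPM. Hdac2 averaged 129 ± 30.1 CPM in WT and 96.5 ± 15.2 in Hdac2 ECKO (SD, n = 3 each), a difference that did not pass the test (log2 fold change −0.42, adjusted p by edgeR 0.22). The values of Hdac2 ECKO and WT overlapped, and beta-catenin GOF averaged 96.2 ± 10.1 CPM, so the Hdac2 total does not check the Hdac2 ECKO label. Ezh2 averaged 6.75 ± 3.52 CPM in WT and 8.92 ± 3.36 in the libraries labelled Ezh2 ECKO, with overlapping values. The difference did not pass the test (log2 fold change 0.40, adjusted p by edgeR 0.61), and Hdac2 ECKO and beta-catenin GOF averaged 9.49 and 9.36 CPM. The Ezh2 total showed no loss, but it includes any exons a recombined allele keeps and does not check the label. This group is therefore called "labelled Ezh2 ECKO" below. Ctnnb1 averaged 654 ± 138 CPM in WT and 583 ± 109 in beta-catenin GOF, and a total over the gene does not check this allele.

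In WT endothelium the 8 genes covered a wide range of levels, compared here as CPM per kilobase of gene length. Icam2, a ligand of the leukocyte integrin LFA-1 that resting endothelium makes constantly, stood highest at 216 ± 57.2 CPM per kb, followed by Cd34 at 133 ± 60.6 (SD, n = 3 each, as for all levels here). The 3 values of Icam2 and Cd34 overlapped. Vcam1, the ligand of the integrin VLA-4, stood at 14.8 ± 5.25 CPM per kb and Icam1, the inducible ligand of LFA-1 and Mac-1, at 8.58 ± 1.28, and these neighbours overlapped too. Ackr1, an atypical receptor that carries chemokines across venular endothelium, stood at 1.60 ± 1.83 CPM per kb and Alcam, the ligand of CD6 on T cells, at 1.27 ± 0.731, again with overlapping values. Sele (E-selectin) followed at 0.338 ± 0.240 CPM per kb, below every value of Alcam. Selp (P-selectin), which is stored in Weibel-Palade bodies, was lowest at 0.0561 ± 0.0610, and its values lay below those of Sele. By their means Icam2 and Cd34 also headed the order in each mutant group, and Selp was lowest in each. Ackr1 held the third place in Hdac2 ECKO and beta-catenin GOF, at 49.2 ± 53.2 and 48.7 ± 74.7 CPM per kb. In beta-catenin GOF that place rested on replicate 3, since the 3 libraries stood at 10.7, 0.638 and 135 CPM per kb, and Vcam1 at 28.3, 9.92 and 33.2. The order by means did not hold in each Hdac2 ECKO library, where Ackr1 stood at 109, 31.3 and 7.21 CPM per kb. It exceeded Icam2 (44.2) and Cd34 (47.9) in replicate 1 and lay below Vcam1 (17.7) in replicate 3.

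**Figure D1:**
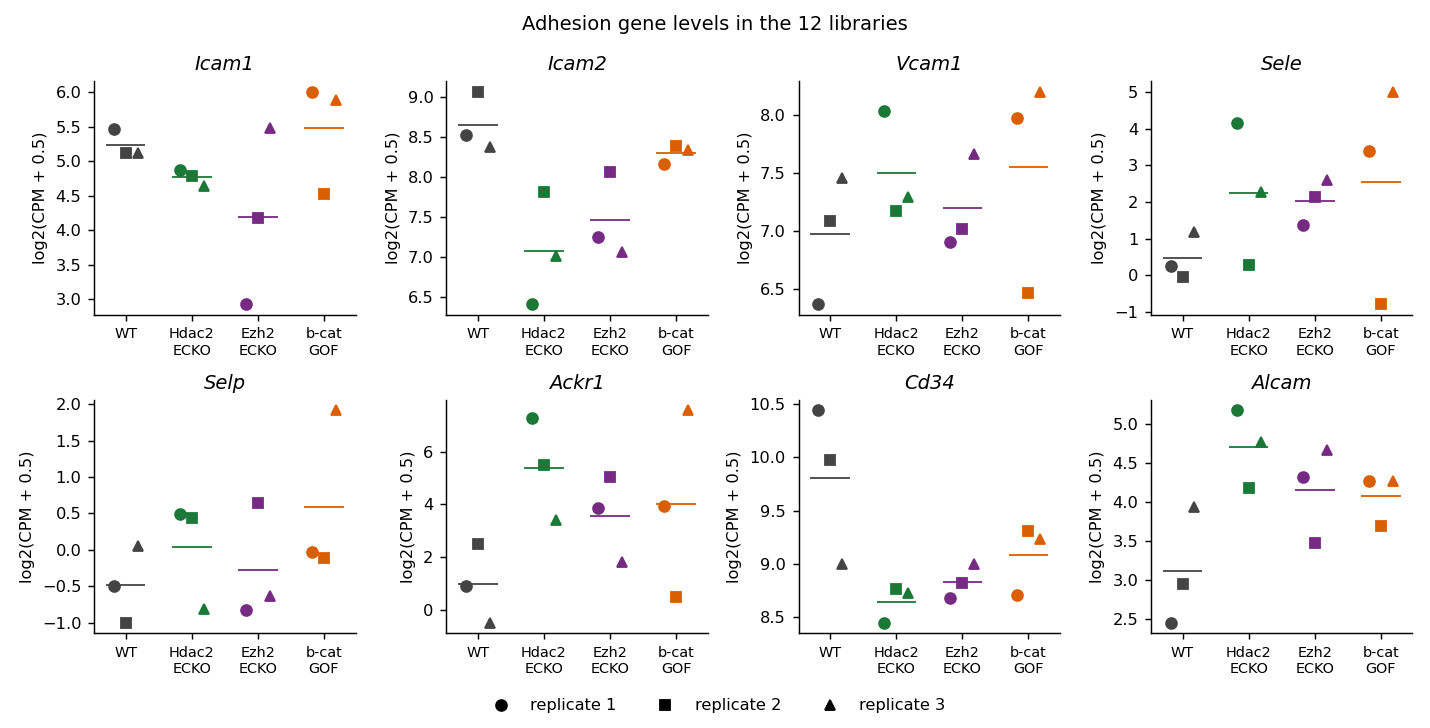
Level of each adhesion gene in the 12 libraries, as log2 of CPM plus 0.5, with symbols for replicates 1 to 3 and a line at the group mean of the log values. In Hdac2 ECKO, Icam2 and Cd34 lie below every WT library, and Alcam and Ackr1 above; Sele and Ackr1 spread most within groups.

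The members also differed in their spread within groups. The SD of log2 CPM within groups (12 libraries) was 0.42 for Cd34 and 0.48 for Icam2, and 2.30 for Ackr1 and 1.84 for Sele. The values of Ackr1 and Sele each exceeded those of 99.9% of the 12577 genes tested, and 99.9% and 99.6% of genes within 0.5 log2 units of their own level. The highest library exceeded the lowest 886-fold for Ackr1 and 399.9-fold for Sele (the lowest Sele library had 3 counts), against 3.99-fold for Cd34.

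Hdac2 ECKO was the group in which members passed the test. Cd34 and Icam2 were lower than in WT and Alcam was higher, so 3 of 8 members passed, where 9.2% of all genes did (quasi-likelihood test of edgeR, with the p adjusted by Benjamini-Hochberg over all 12577 genes and a threshold of 0.05). By direction 1 member rose, against 3.82% of all genes, and 2 fell, against 5.38%. At an unadjusted p under 0.05 there were 5 of 8 members, where 33.1% of all genes were. In 5 of 8 members the 3 libraries did not overlap with WT, where 37.8% of all genes did not. The median log2 fold change of the 8 was 0.91, with 5 above 0, beside a median of 0.10 over all genes tested.

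Cd34 encodes a sialomucin of endothelium and blood stem cells. It stood at 1392, 1005 and 511 CPM in WT replicates 1, 2 and 3, at 349, 434 and 425 in Hdac2 ECKO libraries, at 411, 451 and 513 in those labelled Ezh2 ECKO, and with beta-catenin GOF at 417, 632 and 604. WT replicates 1 and 2 were above all other libraries, and WT replicate 3 lay among the mutants. The fall in Hdac2 ECKO was 1.27 on the log2 scale (fold 0.415, SE 0.32, adjusted p by edgeR 0.036). Labelled Ezh2 ECKO was at −1.08 (SE 0.31, adjusted p by edgeR 0.076) and beta-catenin GOF at −0.81 (SE 0.31, adjusted p by edgeR 0.75), and neither passed.

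Icam2 supports crawling and passage of leukocytes at endothelial junctions. Its level was 368, 534 and 329.8 CPM in WT, at 84.2, 224 and 128 in Hdac2 ECKO libraries, at 151, 266 and 132 in those labelled Ezh2 ECKO, and with beta-catenin GOF at 285, 335 and 321. All 6 libraries of Hdac2 ECKO and labelled Ezh2 ECKO lay below the lowest WT library, and the beta-catenin GOF values overlapped with WT. Icam2 fell by 1.50 on the log2 scale in Hdac2 ECKO (fold 0.354, SE 0.35, adjusted p by edgeR 0.034). The value in labelled Ezh2 ECKO was −1.16 (SE 0.35, adjusted p by edgeR 0.082) and in beta-catenin GOF −0.39 (SE 0.35, adjusted p by edgeR 0.93).

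Alcam stood at 5.00, 7.22 and 14.9 CPM in WT, at 35.8, 17.8 and 26.8 in Hdac2 ECKO libraries, at 19.6, 10.7 and 24.9 in those labelled Ezh2 ECKO, and with beta-catenin GOF at 18.9, 12.5 and 18.8. Every Hdac2 ECKO library was above the highest WT library, while replicate 2 of each of the other mutant groups lay within the WT range. Alcam rose 2.96-fold in Hdac2 ECKO (log2 fold change 1.57, SE 0.42, adjusted p by edgeR 0.040). The log2 fold changes of 1.03 (SE 0.42, adjusted p by edgeR 0.15) and 0.89 (SE 0.42, adjusted p by edgeR 0.82) in labelled Ezh2 ECKO and beta-catenin GOF did not pass.

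**Figure D2:**
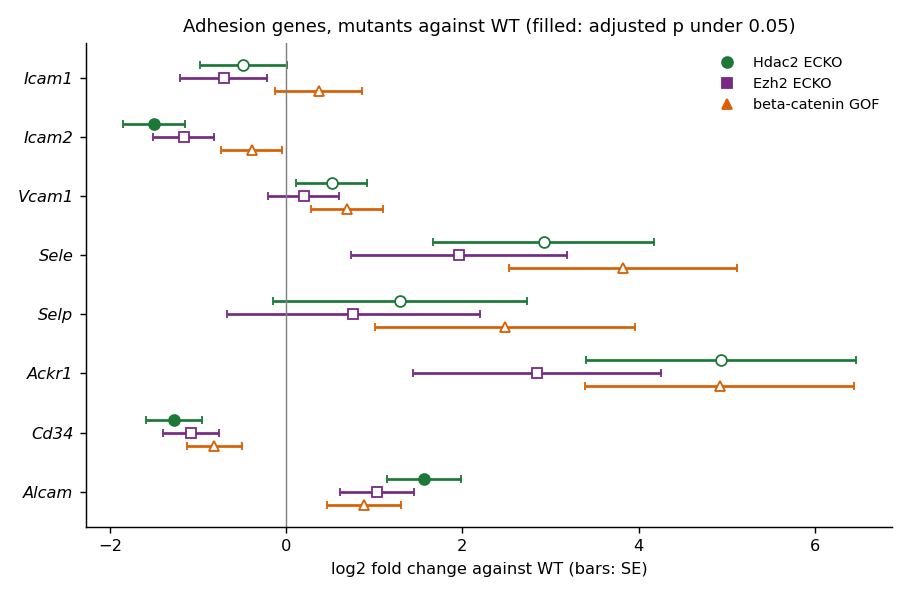
Log2 fold change of each adhesion gene against WT, with its standard error, for Hdac2 ECKO (circles), labelled Ezh2 ECKO (squares) and beta-catenin GOF (triangles). Filled symbols passed the adjusted threshold: Icam2 and Cd34 (lower) and Alcam (higher), all in Hdac2 ECKO.

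Each of these 3 calls was lost without WT replicate 1 or 2 and without Hdac2 ECKO replicate 1 or 3, with adjusted p by edgeR from 0.10 to 0.17, with log2 fold changes of −1.57, −1.26, −1.23 and −1.42 for Icam2, −0.91, −1.24, −1.19 and −1.32 for Cd34, and 1.28, 1.43, 1.29 and 1.55 for Alcam; of all genes 0, 0, 1 and 0 passed in those fits. Cd34 was also lost without beta-catenin GOF replicate 2 (adjusted p by edgeR 0.052), and Alcam without any 1 of the 3 beta-catenin GOF libraries (adjusted p by edgeR 0.051 to 0.056), which enter through the shared estimate of spread. Removal of a trend on gene length from every library left Cd34 at −1.64 (adjusted p by edgeR 0.027), while Icam2 at −0.95 (adjusted p by edgeR 0.052) and Alcam at 1.22 (adjusted p by edgeR 0.067) no longer passed. The length in the table is 7290 bases for Cd34, 1904 for Icam2 and 7121 for Alcam.

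**Figure D3:**
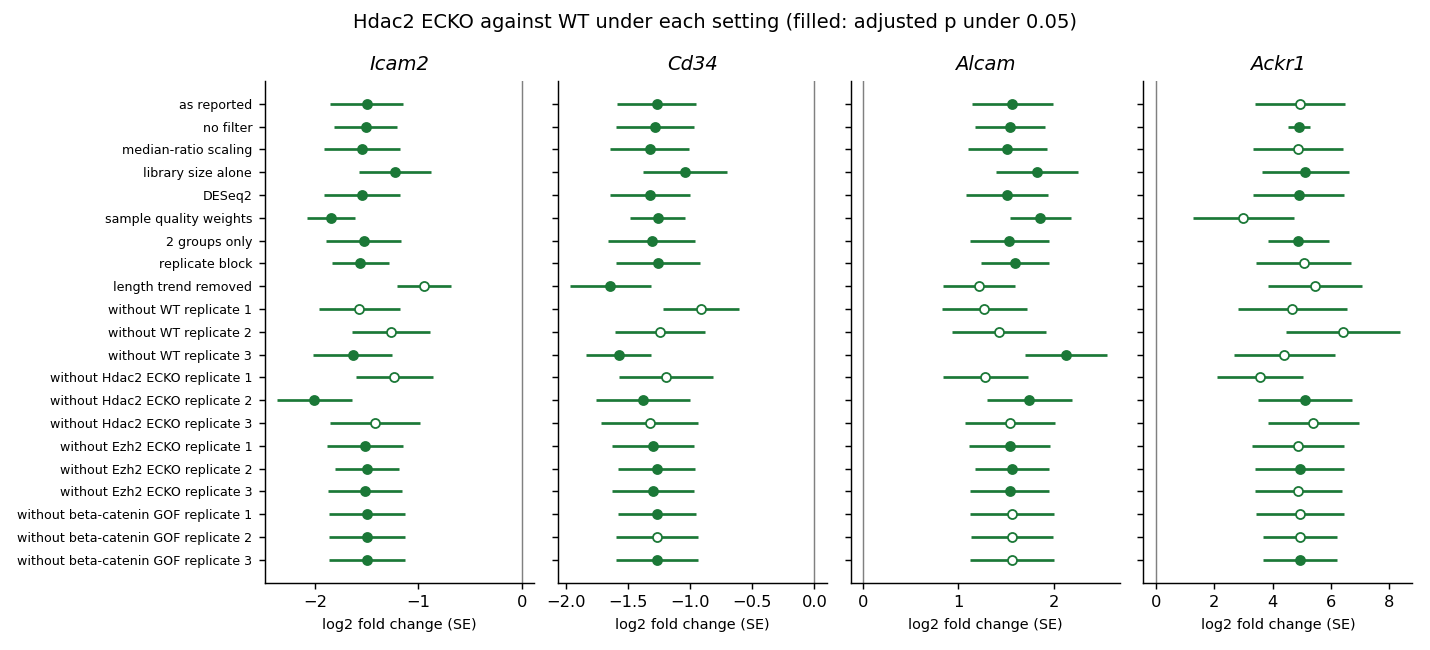
Log2 fold change in Hdac2 ECKO against WT, with its standard error, for Icam2, Cd34, Alcam and Ackr1 under each setting and without each library in turn. Filled points passed the adjusted threshold; all points kept their side of 0.

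No member passed in labelled Ezh2 ECKO (0 of 8, where 1.03% of all genes did), with 3 of 8 at an unadjusted p by edgeR under 0.05, where 24.7% of all genes were. These were Icam2, Cd34 and Alcam. DESeq2 called Icam2 and Cd34 among 1280 genes in all, and limma with sample quality weights called all 3 among 3743 genes. Values did not overlap with WT for 2 of 8 members, Icam2 (lower) and Sele (higher), beside 22% of all genes. Replicate 2 of this group had the highest Icam2 and the lowest Alcam of its 3 libraries. Without that replicate Icam2 was at −1.54 (adjusted p by edgeR 0.014), Alcam at 1.30 (adjusted p by edgeR 0.043) and Cd34 at −1.07 (adjusted p by edgeR 0.049), and without WT replicate 3 the same 3 genes passed (adjusted p by edgeR 0.048, 0.034 and 0.018). Without Hdac2 ECKO replicate 2 Icam2 passed as well (adjusted p by edgeR 0.049). Of all genes 2328, 1138 and 385 passed in those fits, in the same order, against 129 as reported.

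In beta-catenin GOF 0 of 8 members passed, where 0% of all genes did. At an unadjusted p by edgeR under 0.05 there were 3 of 8 (Sele, Ackr1 and Cd34), where 6.07% of all genes were, and DESeq2 and the quality-weighted fit called none of the 8. Without the filter on low counts 2 of 8 passed, Sele (adjusted p by edgeR 1.3e-09) and Ackr1 (adjusted p by edgeR 2.2e-34), among 157 genes in all. The log2 fold change of Sele was 3.82 in both fits, and its SE was 0.54 without the filter and 1.30 with it. The number of members that did not overlap with WT was 0 of 8, beside 12.7% of all genes.

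The selectins, Ackr1 and Vcam1 did not pass in any comparison with WT in the fit reported. Without the filter on low counts Sele and Ackr1 passed in all 3 comparisons with WT. Of all genes 2279, 1367 and 157 passed there, for Hdac2 ECKO, labelled Ezh2 ECKO and beta-catenin GOF. Ackr1 stood at 1.39, 5.13 and 0.214 CPM in WT, at 153, 43.9 and 10.1 in Hdac2 ECKO libraries, at 13.9, 31.9 and 3.02 in those labelled Ezh2 ECKO, and with beta-catenin GOF at 15.0, 0.897 and 189. All 3 Hdac2 ECKO libraries exceeded WT, but beta-catenin GOF held both the highest library of all and one below WT replicate 1. The log2 fold changes were 4.93 (SE 1.53, adjusted p by edgeR 0.054) in Hdac2 ECKO, 2.85 (SE 1.41, adjusted p by edgeR 0.22) in labelled Ezh2 ECKO and 4.92 (SE 1.53, adjusted p by edgeR 0.63) in beta-catenin GOF. Without beta-catenin GOF replicate 3 the last was 1.81 (adjusted p by edgeR 0.92), and without Hdac2 ECKO replicate 1 the value for Hdac2 ECKO was 3.57 (adjusted p by edgeR 0.20). DESeq2 put Ackr1 past the threshold in Hdac2 ECKO (adjusted p 0.015), as did the fit of only the 2 groups (adjusted p by edgeR 0.029), and in all Ackr1 passed in 7 of 20 alternative fits of that comparison.

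Ackr1 (chromosome 1, 173331886 to 173333750, minus strand, GRCm38) overlaps its neighbour Cadm3 (173333258 to 173367695) on the same strand, with 361 shared exon bases, so its count is uncertain where reads fell in both. Cadm3, a neuronal-type adhesion molecule of the nectin-like family, was also the gene most like Ackr1 over the 12 libraries among 10814 genes, those reaching a mean count of 50 (Pearson's r 0.96, Spearman's rho 0.97, and r 0.96 without the 2 libraries farthest from the median). Its level was lower, at 11.2 CPM in Hdac2 ECKO replicate 1 and 16.1 in beta-catenin GOF replicate 3. The next most alike gene was Lrg1, a secreted glycoprotein of venular and inflamed endothelium (r 0.86, rho 0.86, and r 0.77 without the 2 farthest libraries). It stood at 1.30, 1.00 and 66.1 CPM in beta-catenin GOF replicates 1, 2 and 3, against at most 1.01 in WT. In Hdac2 ECKO replicates 1, 2 and 3 it was at 10.9, 7.96 and 0.139 CPM.

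The endothelial selectin genes are neighbours on chromosome 1, with Sele at 164048234 to 164057677 and Selp at 164115264 to 164150026 (plus strand, GRCm38). Both endothelial selectins hold a match to the AP-1 pattern TGANTCA (either strand) within the 250 bases before the RefSeq start. The pattern leaves the middle base free, and the match is TGACTCA in Sele and TGATTCA in Selp. A stricter pattern with only C or G in the middle would match Sele alone. They are shown because these genes share a locus and were highest in the same library. The motif is in capitals in the sequences, which are from RefSeq, GRCm38.p6, plus strand, Sele at chr1:164047984-164048233 and Selp at chr1:164115014-164115263.
Sele: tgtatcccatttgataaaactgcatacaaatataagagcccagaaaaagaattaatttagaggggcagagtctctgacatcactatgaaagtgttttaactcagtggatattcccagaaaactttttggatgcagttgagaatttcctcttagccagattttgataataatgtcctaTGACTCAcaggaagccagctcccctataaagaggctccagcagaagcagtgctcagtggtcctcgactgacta
Selp: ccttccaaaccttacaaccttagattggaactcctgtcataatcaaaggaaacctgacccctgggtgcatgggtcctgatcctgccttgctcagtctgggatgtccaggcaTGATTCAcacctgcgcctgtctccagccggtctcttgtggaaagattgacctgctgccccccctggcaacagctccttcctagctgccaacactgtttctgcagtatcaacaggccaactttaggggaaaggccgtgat

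The match starts 73 bases before the Sele start and 139 bases before the Selp start. Of 32851 RefSeq promoter windows of this length 6.75% hold a match to TGANTCA, with any middle base. The windows of Icam1, Ackr1, Cd34 and Alcam hold none, and those of Icam2 and Vcam1 were not analysed here. The NF-kB consensus motif GGGRNWYYCC was in none of the 6 windows and in 3.9% of all windows. Only exact matches were counted, so NF-kB sites that depart from this consensus would be missed. The GATA motif AGATAA (9.99% of windows) and the ETS motif CCGGAAGT or ACCGGAAG (3.72%) were in none of the 6, and the E-box CANNTG (66.2%) was in 4 of them. The GC content of the window was 40.4% for Sele, 53.6% for Selp, 49.2% for Ackr1, 46.4% for Cd34, 65.2% for Icam1 and 69.2% for Alcam, beside a median of 52.4% over all windows.

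Sele is made by endothelium on activation. It stood at 0.694, 0.475 and 1.78 CPM in WT, at 17.3, 0.718 and 4.37 in Hdac2 ECKO libraries, at 2.07, 3.86 and 5.53 in those labelled Ezh2 ECKO, and with beta-catenin GOF at 9.96, 0.0792 and 31.7. All 3 labelled Ezh2 ECKO libraries were above WT, and replicate 2 of Hdac2 ECKO and of beta-catenin GOF was not. Its log2 fold changes of 2.92 (SE 1.26), 1.96 (SE 1.23) and 3.82 (SE 1.30) in Hdac2 ECKO, labelled Ezh2 ECKO and beta-catenin GOF did not pass (adjusted p by edgeR 0.12, 0.33 and 0.69). Without Hdac2 ECKO replicate 1 the value for that group was 1.34, and without beta-catenin GOF replicate 3 the value for beta-catenin GOF was 2.35. Without the filter the adjusted p by edgeR was 3.9e-06, 0.0056 and 1.3e-09 in the same order of groups, with smaller SEs of 0.52, 0.51 and 0.54. None of the other 19 alternative fits put Sele past the threshold against WT.

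Selp was close to the detection floor. Its counts stood at 6, 0 and 15 in WT, at 24, 26 and 2 in Hdac2 ECKO libraries, at 2, 27 and 4 in those labelled Ezh2 ECKO, and with beta-catenin GOF at 14, 16 and 113. Beta-catenin GOF replicate 3 was the highest at 3.28 CPM, every other library stood at or under 1.06 CPM, and all groups overlapped. The log2 fold changes against WT were 1.29 (SE 1.44), 0.76 (SE 1.44) and 2.48 (SE 1.47), with adjusted p by edgeR of 0.55, 0.78 and 0.89 in the same order. No difference was detected with these few counts and this spread between replicates. Platelets, which the sort against CD41 would remove, also hold P-selectin. The 5 platelet markers summed to 15.4 to 39.2 CPM in WT, 5.68 to 47.2 in Hdac2 ECKO, 11.2 to 51.2 in labelled Ezh2 ECKO and 19.0 to 43.8 in beta-catenin GOF, and their part in the Selp counts was not tested.

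Vcam1 stood at 82.1, 136 and 175 CPM in WT, at 262, 143 and 157 in Hdac2 ECKO libraries, at 119, 129 and 202 in those labelled Ezh2 ECKO, and with beta-catenin GOF at 251, 88.0 and 294. Each mutant group overlapped with WT, and the log2 fold changes of 0.52 (SE 0.41), 0.20 (SE 0.41) and 0.69 (SE 0.41) did not pass (adjusted p by edgeR 0.39, 0.80 and 0.89). Icam1 was at 43.8, 34.3 and 34.1 CPM in WT, at 28.9, 27.0 and 24.4 in Hdac2 ECKO libraries, at 7.13, 17.7 and 44.0 in those labelled Ezh2 ECKO, and with beta-catenin GOF at 63.7, 22.5 and 58.7. All Hdac2 ECKO libraries lay below WT, by a log2 fold change of −0.48 (SE 0.49, adjusted p by edgeR 0.51) that did not pass, and the other groups spread to both sides of WT. Icam1 in labelled Ezh2 ECKO and beta-catenin GOF was at −0.70 (SE 0.49, adjusted p by edgeR 0.39) and 0.37 (SE 0.49, adjusted p by edgeR 0.95).

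**Figure D4:**
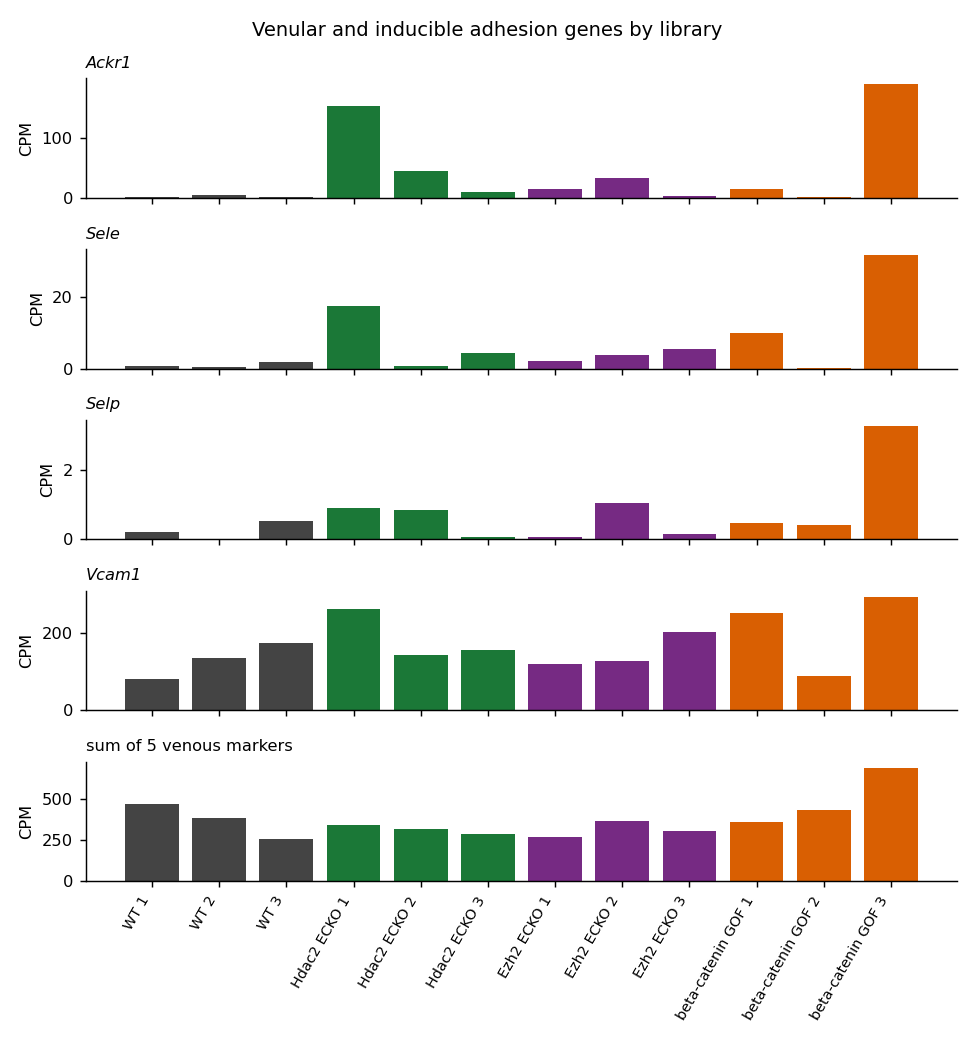
CPM of Ackr1, Sele, Selp and Vcam1 and the summed CPM of 5 venous endothelial markers in each library, coloured by group. Beta-catenin GOF replicate 3 is highest in all 5 panels, and Hdac2 ECKO replicate 1 is next for Ackr1, Sele and Vcam1 but not for Selp or the venous sum.

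Beta-catenin GOF replicate 3 had the highest Ackr1, Sele, Selp and Vcam1 of the 12 libraries, and Hdac2 ECKO replicate 1 was next for Ackr1, Sele and Vcam1. The 5 venous markers Nr2f2, Slc38a5, Vwf, Ephb4 and Flrt2 summed to 689.8 CPM in beta-catenin GOF replicate 3, above the other 11 libraries. In Hdac2 ECKO replicate 1 they summed to 340.4 CPM, within the 258 to 469 CPM of the other 10. Vwf, the von Willebrand factor gene and a marker of larger vessels, stood at 261 CPM in beta-catenin GOF replicate 3 and at 60.4 to 136 CPM in the other 11. The part of vein content in these adhesion gene levels was not tested, and in sorted bulk cells a larger share of venular cells and more RNA per venular cell cannot be told apart.

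Across the 12 libraries Vcam1 and Sele were each among the 2 genes most like the other out of 10814 (r 0.88, rho 0.84, r 0.85 without the 2 libraries farthest from the Vcam1 median, and 0.88 after subtraction of group means). Zc3h12c was the next most like Vcam1 (r 0.86), and Lgals1, the galectin-1 gene, was the most like Sele (r 0.88). For Ackr1 with Sele r was 0.69 (rho 0.65), falling to 0.48 without the 2 libraries farthest from the median of Sele, and for Ackr1 with Selp 0.63 (rho 0.56), falling to 0.46 without those farthest from the median of Selp. On leaving out the 2 farthest libraries r fell from 0.51 to 0.20 for Vcam1 with Selp, from 0.57 to 0.34 for Sele with Selp and from 0.59 to 0.37 for Vcam1 with Ackr1. In the opposite sense, Alcam varied against Cd34 (r −0.87, rho −0.76, −0.54 without the 2 farthest) and against Icam2 (r −0.83, rho −0.89, −0.73 without them). Cd34 and Icam2 varied together (r 0.70, rho 0.80), but less so after subtraction of group means (0.28). These are descriptions of 12 libraries that share groups, depth and preparation, among 28 pairs, and carry no test. All r values given here used levels from which the trend on gene length was not removed, and its part in them was not tested.

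**Figure D5:**
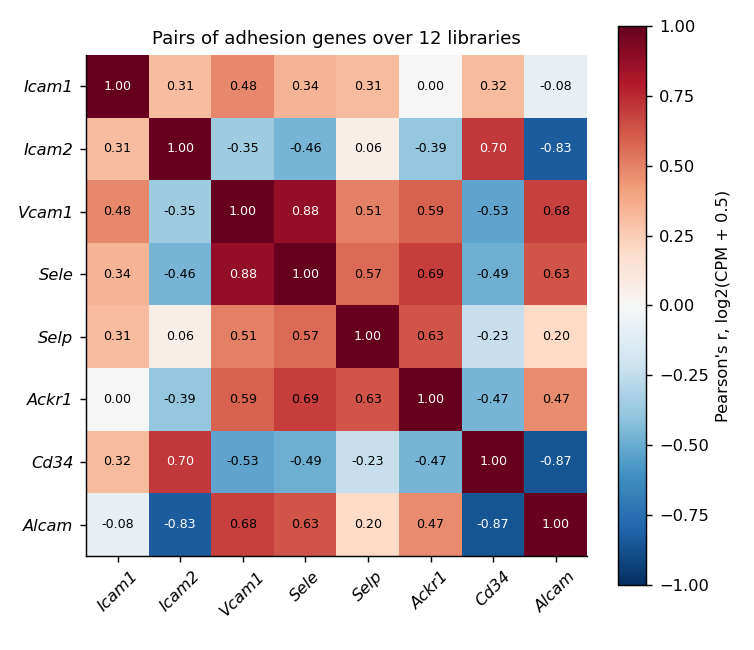
Pearson's r of log2(CPM + 0.5) between each pair of the 8 adhesion genes over the 12 libraries. Vcam1 with Sele has the highest value (0.88), and Alcam with Cd34 the lowest (−0.87).

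Icam2, Cd34 and Alcam each tracked other genes closely, as Ackr1 did Cadm3. Icam2 was most like Txndc12 (r 0.99, rho 0.94), a thioredoxin-domain protein of the endoplasmic reticulum, and Mfsd5 (r 0.98). Cd34 was most like Cers2, a ceramide synthase (r 0.98, rho 0.94), and Ywhaz (r 0.97), and Alcam was most like Lyst (r 0.98, rho 0.98) and Nr3c1, the glucocorticoid receptor gene (r 0.96). For Icam1 the nearest were Tspan7 (r 0.88) and Angptl4 (r 0.86), which fell to 0.68 and 0.63 without the 2 libraries farthest from the median of Icam1, and for Selp Fgfbp1 (r 0.87) and Iqcc (r 0.83).

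The mutants were also compared with each other. None of the 8 members passed in Hdac2 ECKO against labelled Ezh2 ECKO, in beta-catenin GOF against Hdac2 ECKO or in beta-catenin GOF against labelled Ezh2 ECKO, where 0.0239%, 0.0716% and 0.0636% of all genes passed. At an unadjusted p by edgeR under 0.05 there were 0, 1 and 2 members, beside 8.19%, 21.1% and 13.2% of all genes. Groups did not overlap for 0, 1 and 1 member, beside 13.2%, 32% and 16.6% of all genes. DESeq2 called 0, 1 and 0 members, beside 98, 621 and 144 genes in all. Icam2 was higher in every beta-catenin GOF library than in any Hdac2 ECKO or labelled Ezh2 ECKO library, with log2 fold changes of 1.11 (SE 0.35, adjusted p by edgeR 0.17) and 0.77 (SE 0.35, adjusted p by edgeR 0.37). Icam1 was at 1.07 (SE 0.50, adjusted p by edgeR 0.38) in beta-catenin GOF against labelled Ezh2 ECKO. So the passing of Icam2, Cd34 and Alcam in Hdac2 ECKO and not in the other mutants was not shown to differ between them.

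The other genes of the system were read from lists chosen by gene name, with p adjusted over all genes. Values of the list genes are from the fit as reported. With the trend on gene length removed, 596 genes in all passed in Hdac2 ECKO against WT, in place of 1157. Which of the list genes kept their calls there was not examined. Of 23 further adhesion and transmigration genes tested, 0 rose and 3 fell in Hdac2 ECKO, and 0 passed in either of the other mutants, where 9.2%, 1.03% and 0% of all genes passed. The median log2 fold changes were −0.05, −0.27 and −0.19, beside 0.10, 0.05 and 0.01 over all genes. Lgals9, which encodes galectin-9, stood at 433, 596 and 274 CPM in WT and 94.5, 153 and 104 in Hdac2 ECKO (log2 fold change −1.89, SE 0.32, adjusted p by edgeR 0.032). F11r, the gene of junctional adhesion molecule A, fell by 0.99 (SE 0.26, adjusted p by edgeR 0.039), and Ninj1, an adhesion protein that also ruptures membranes of dying cells, by 2.11 (SE 0.57, adjusted p by edgeR 0.040), from 83.9, 92.9 and 61.3 CPM in WT to 7.35, 34.9 and 13.0. Smallest in p without passing were F11r (−1.10, adjusted p by edgeR 0.056) and Lgals9 (−1.29, adjusted p by edgeR 0.056) in labelled Ezh2 ECKO, and under beta-catenin GOF Bst1 (3.14, SE 0.73, adjusted p by edgeR 0.40) and Stab1 (0.84, adjusted p by edgeR 0.715). Bst1, an ectoenzyme that takes part in leukocyte passage, was at 7.16, 6.97 and 14.6 CPM in beta-catenin GOF and at most 1.71 in WT.

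Of 29 cytokine receptor and NF-kB pathway genes, 1 rose and 4 fell in Hdac2 ECKO, 1 fell in labelled Ezh2 ECKO and 0 passed in beta-catenin GOF, with medians of 0.11, −0.24 and 0.01. Of all genes 3.82% rose and 5.38% fell in Hdac2 ECKO, and 1.03% passed in labelled Ezh2 ECKO. Nfkb1, which encodes the p105 precursor of an NF-kB subunit, rose from 22.7, 34.6 and 28.8 CPM in WT to 77.8, 50.3 and 64.4 in Hdac2 ECKO (log2 fold change 1.16, SE 0.30, adjusted p by edgeR 0.038). Nfkbia, the inhibitor that NF-kB itself induces, fell by 1.20 (SE 0.32, adjusted p by edgeR 0.040), and Ifngr1, a chain of the interferon-gamma receptor, by 1.28 (SE 0.35, adjusted p by edgeR 0.040). Bcl3, a co-activator of this pathway, fell by 1.63 (SE 0.45, adjusted p by edgeR 0.041). Irf1, an interferon-induced transcription factor, fell by 1.85 (SE 0.39, adjusted p by edgeR 0.032) in Hdac2 ECKO and by 2.23 (SE 0.40, adjusted p by edgeR 0.044) in labelled Ezh2 ECKO. In beta-catenin GOF the smallest p belonged to Irf1 (−1.59, adjusted p by edgeR 0.40) and Il1r1, a receptor of interleukin-1 (1.03, adjusted p by edgeR 0.82).

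Of 17 linkers that hold clustered Icam1 and Vcam1 to the actin skeleton or to tetraspanin domains, 1 rose and 6 fell in Hdac2 ECKO and 0 passed in labelled Ezh2 ECKO and beta-catenin GOF, with medians of −0.01, −0.06 and −0.18, beside 3.82% of all genes higher and 5.38% lower in Hdac2 ECKO and medians over all genes of 0.10, 0.05 and 0.01. The tetraspanin genes Cd9 and Cd81 fell by 1.48 (SE 0.32, adjusted p by edgeR 0.032) and 1.28 (SE 0.36, adjusted p by edgeR 0.042), Rhoa by 1.24 (SE 0.26, adjusted p by edgeR 0.032) and Cav1, the caveolin-1 gene, by 1.24 (SE 0.30, adjusted p by edgeR 0.034). Flna, filamin A, rose by 1.03 (SE 0.30, adjusted p by edgeR 0.047). The smallest p in the other mutants belonged to Cd9 (−1.02, adjusted p by edgeR 0.087) and Rhog (−1.32, adjusted p by edgeR 0.11) in labelled Ezh2 ECKO, and to Cav1 (−1.20, adjusted p by edgeR 0.42) and Cd9 (−0.71, adjusted p by edgeR 0.80) in beta-catenin GOF.

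Of 19 interferon response genes tested, 0 rose and 8 fell in Hdac2 ECKO, 4 fell in labelled Ezh2 ECKO and 0 passed in beta-catenin GOF, where 9.2%, 1.03% and 0% of all genes passed, with medians of −1.72, −1.72 and −1.59. Irf7 fell by 2.78 (SE 0.43, adjusted p by edgeR 0.032) and Isg15 by 1.72 (SE 0.32, adjusted p by edgeR 0.032) in Hdac2 ECKO. WT replicate 2 stood apart, with Igtp at 1866 CPM against 70.0 and 92.6 in the other WT libraries. Of the adhesion genes it had the highest Icam2 of all 12 libraries (534 CPM) and the highest Ackr1 (5.13 CPM) and lowest Sele (0.475 CPM) of WT, while its Icam1, Vcam1, Cd34 and Alcam lay between the other WT values and Selp had no count. Without WT replicate 2, 0 genes of the whole table passed in Hdac2 ECKO, 0 under beta-catenin GOF and 2 in libraries labelled Ezh2 ECKO. The interferon calls in Hdac2 ECKO were thus all lost, and 0 of 8 adhesion genes passed in each comparison with WT. This loss was not particular to WT replicate 2. Without WT replicate 1, 0, 1 and 2 genes passed in the same order of groups. In Hdac2 ECKO, 1 and 0 genes passed without its replicate 1 or 3.

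The leukocyte side of the system was barely detected. Of 10 leukocyte counter-receptor genes 3 reached the limit for testing and 0 passed in any mutant against WT; those smallest in p were Itga4 (0.92, adjusted p by edgeR 0.27) in Hdac2 ECKO and Glg1 (−0.17, adjusted p by edgeR 0.79) in labelled Ezh2 ECKO, and Selplg (0.76, adjusted p by edgeR 0.95) in beta-catenin GOF. Itgb2, the chain that LFA-1 and Mac-1 share, stayed at or under 0.290 CPM. The 14 leukocyte and microglia markers summed to 20.2 to 26.5 CPM in WT, 5.48 to 12.8 in Hdac2 ECKO, 4.73 to 35.0 in labelled Ezh2 ECKO and 6.20 to 9.38 in beta-catenin GOF, with Cd53 at 0 in all 9 mutant libraries. Markers of other cells moved with the groups as well. The 5 erythroid markers summed to 36133 to 61380 CPM in WT, 401 to 21676 in Hdac2 ECKO, 2519 to 6664 in labelled Ezh2 ECKO and 509.8 to 35370 in beta-catenin GOF. The 6 astrocyte markers summed to 24.0 to 35.7 CPM in WT and to 36.7 or more in every mutant library. The 4 choroid plexus and ependyma markers summed to at most 2.09 CPM in WT and to 23.6 to 182 in labelled Ezh2 ECKO, with 2.20 to 111 in Hdac2 ECKO and 0.290 to 33.4 in beta-catenin GOF. The 10 pericyte and smooth muscle markers, cells that can also make Vcam1 and Alcam, summed to 66.9 to 123 CPM in WT, 129 to 315 in Hdac2 ECKO, 56.6 to 72.8 in labelled Ezh2 ECKO and 121 to 379 in beta-catenin GOF, and 4 of the 9 tested rose in Hdac2 ECKO (Myh11, Pdgfrb, Cspg4 and Rgs5). The 7 markers of fibroblasts, which can make Cd34, summed to at most 4.78 CPM in any library. The part of all these cells in the levels of the 8 adhesion genes was not tested.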

How the data were processed

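The deposited table gives 1 value per gene and library, and although its title calls them normalized, the values are whole-number counts as deposited by the authors: totals differ between libraries, and 79.5% to 84.0% of values from 10 to 50 are even, against 59.4% to 67.1% from 300 to 1000, as counting of both mates would give. The submitters' processing notes name cutadapt, STAR, featureCounts, DESeq2 and the build mm10, without roles or versions; annotation and strand setting are not given in the sources used here. Gene length in bases is per the file headers. Positions of 98.4% of rows matched GENCODE M21 (GRCm38). Because strand use is unknown, reads of antisense genes overlapping Icam1, Vcam1, Selp and Cd34 cannot be told apart from theirs.

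Genes reaching a mean count of 10 were tested by the quasi-likelihood method of edgeR 4.0.16 (R 4.3.3) after TMM normalization, with all 12 libraries in 1 model whose terms are the 4 groups, and Benjamini-Hochberg adjustment over all 12577 genes per comparison with a threshold of 0.05. SEs were derived from the F statistic. The scripts were tested on simulated data. Alternatives were no filter, other scalings, DESeq2 1.42.0, limma 3.58.1 with sample quality weights, the 2 groups only, a replicate block, removal of a length trend, and leaving out each library. The 3-count floor covers counting error alone. Replicates differed by far more than sampling noise (chi-square per degree of freedom at least 66.3).

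The replicate numbers of Hdac2 ECKO and labelled Ezh2 ECKO deviated together (r 0.16, 0.38 and 0.11 for replicates 1, 2 and 3), which met the criterion for pairing (every r above 0.1); no other comparison did, and the block changed no member call there. The 8 genes and all lists were chosen with earlier results of these data known. Named are the 8 genes, the targeted genes, up to 5 members per list past the threshold or the 2 smallest in p, and the 2 genes most correlated with each member; other names (Itgb2, Ptprc, Vwf, Igtp, Cd53) were added after their values were seen. Irf1 is on 2 lists. Another 2 genes of the lists are not reported here, and list counts and sums leave them out.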

Additional observations from a re-analysis of the deposited data

How the results depend on the processing

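Counts of calls follow one order: each mutant group against WT (Hdac2, Ezh2, beta-catenin), then Hdac2 with Ezh2, beta-catenin with Hdac2, and beta-catenin with Ezh2; as reported they were 3, 0, 0, 0, 0 and 0 adhesion genes and 1157, 129, 0, 3, 9 and 8 genes. Without a filter they were 5, 4, 2, 1, 1 and 2 adhesion genes and 2279, 1367, 157, 199, 978 and 359 genes. DESeq2 gave 4, 2, 0, 0, 1 and 0, and 2553, 1280, 38, 98, 621 and 144. Sample quality weights gave 3, 3, 0, 0, 2 and 1, and 5374, 3743, 26, 11, 3339 and 1466. Library size alone gave 4, 0, 0, 0, 0 and 0, and 1826, 30, 0, 2, 4 and 14; of its Hdac2 ECKO calls 1469 were higher and 357 lower, against 480 and 677 as reported, and the median of all genes there was 0.34 in place of 0.10 on the log2 scale; of its Ezh2 calls 17 were higher and 13 lower, against 43 and 86. Median-ratio scaling gave 3 and otherwise 0 adhesion genes, and 1049, 76, 0, 3, 7 and 10 genes, and a fit of only the 2 groups gave 4 and otherwise 0, and 1446, 17, 0, 2, 9 and 11. With the length trend removed there were 1 and otherwise 0 adhesion genes, and 596, 103, 0, 3, 1 and 14 genes. With the replicate number as a block there were 3, 1, 0, 0, 0 and 0 adhesion genes and 1832, 536, 0, 3, 13 and 13 genes; the added member was Icam2 in labelled Ezh2 ECKO (log2 fold change −1.20, adjusted p by edgeR 0.033), and the block changed no other call of a member. Leaving out each of the 12 libraries in turn gave 0 to 4, 0 to 3, 0, 0, 0 to 1 and 0 adhesion genes and 0 to 2760, 2 to 2328, 0 to 4, 1 to 4, 0 to 642 and 1 to 731 genes. In those 12 fits Icam2 passed in 8, Cd34 in 7 and Alcam in 5 for Hdac2 ECKO against WT. Against WT, another sign than the one reported was seen in 1 of 19 fits for Selp and 3 of 20 for Vcam1, both in labelled Ezh2 ECKO and not past the threshold in any, and the cause of these differences was not tested. Selp had 2 counts or fewer in 3 libraries, and the parts of depth and of spread between replicates in its results were not tested.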
